A study of Mus musculus with 13 samples.

Results

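Ptprc encodes CD45, the receptor-type protein tyrosine phosphatase of nucleated blood cells, and all its transcripts in the deposited tables of M2 CD4SP thymocytes are described here. The gene is ENSMUSG00000026395 and lies on the minus strand at chr1:138062861-138175708 of GRCm38. Of the 117497 transcripts in the tables, 13 belong to Ptprc. All transcripts of the gene were taken, without a threshold on a measured value.

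Cells came from Lm54 Rag1-/- mice of the C57BL/6J background, 8 to 12 weeks old. Every CD4 T cell in these mice carries 1 transgenic T cell receptor, specific for a listeriolysin (LLO) peptide on I-Ab. In CtslΔTEC mice, floxed Ctsl alleles were deleted by a Foxn1-cre transgene, which acts in thymic epithelial cells and not in the sorted thymocytes. The controls are labelled Ctsl fl/fl (WT) and are called WT here. M2 cells, the mature CD69- MHCI+ CD4SP thymocytes, were sequenced unstimulated from 4 WT and 5 CtslΔTEC mice. Cells of 2 further WT and 2 further CtslΔTEC mice were stimulated for 4 h with plate-bound LLO:Iab monomer at 1 µg/ml and soluble anti-CD28 at 250 ng/ml. Each library was 1 mouse. Mice of either CD45.1 or CD45.2 allotype were used elsewhere in the study, and the allotype of the sequenced mice is not given in the sources used here.

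CD45 removes the inhibitory phosphate from the tail of Src-family kinases such as LCK and so keeps them ready for T cell receptor signals. Exons 4, 5 and 6 of its gene, also called A, B and C, code for a heavily O-glycosylated stretch at the outer tip of the protein and are included or skipped in different lymphocytes. B cells include all of them, which gives the large form CD45RABC, and naive T cells keep mainly exon 5 (CD45RB). Activated and memory T cells skip all of them, which gives CD45RO, and the RNA-binding protein HNRNPLL is a main driver of this skipping. The switch to CD45RO after activation takes days, far longer than the stimulation used here.

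The 4 coding transcripts whose annotation runs through this part of the gene are shown between exon 3 and exon 8, as in GENCODE M21 on GRCm38, because the isoform results rest on which of exons 4 to 7 they hold. Ptprc-207 is shown in the parts that the others lack, since its exon 5 is that of Ptprc-213. Capitals mark exons 4 to 6, and lower case marks exons 3, 7 and 8.
Ptprc-203: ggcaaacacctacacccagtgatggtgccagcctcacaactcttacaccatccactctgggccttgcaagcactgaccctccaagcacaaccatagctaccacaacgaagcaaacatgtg
Ptprc-204: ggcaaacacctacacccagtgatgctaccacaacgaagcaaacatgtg
Ptprc-213: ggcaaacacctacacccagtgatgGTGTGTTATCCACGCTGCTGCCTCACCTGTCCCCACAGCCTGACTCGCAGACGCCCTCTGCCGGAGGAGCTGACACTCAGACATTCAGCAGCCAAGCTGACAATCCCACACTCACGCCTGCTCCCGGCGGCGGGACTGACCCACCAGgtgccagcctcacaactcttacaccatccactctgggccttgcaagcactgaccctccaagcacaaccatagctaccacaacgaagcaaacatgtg
Ptprc-207 exons 3 and 4: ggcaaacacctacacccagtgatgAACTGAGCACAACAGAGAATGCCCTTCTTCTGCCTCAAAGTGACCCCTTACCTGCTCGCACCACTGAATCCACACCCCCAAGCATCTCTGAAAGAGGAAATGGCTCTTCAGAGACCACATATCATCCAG
Ptprc-207 exons 6 to 8: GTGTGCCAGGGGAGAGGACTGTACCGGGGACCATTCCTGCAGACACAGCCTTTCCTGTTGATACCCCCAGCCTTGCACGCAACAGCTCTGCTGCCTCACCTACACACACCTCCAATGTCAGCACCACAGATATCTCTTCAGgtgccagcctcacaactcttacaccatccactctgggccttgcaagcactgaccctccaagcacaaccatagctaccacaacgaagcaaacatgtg

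Ptprc-203 joins exon 3 to exon 7 and is the CD45RO form. Ptprc-204 also skips exon 7 and joins exon 3 to exon 8. Ptprc-213 holds exon 5 and exon 7, the CD45RB arrangement, but its model is truncated at 702 nt. Ptprc-207 holds all of exons 4 to 7 and is the CD45RABC form. Exon 4 is 129 nt long (chr1:138122456-138122584), exon 5 is 147 nt (chr1:138120020-138120166), exon 6 is 141 nt (chr1:138117754-138117894) and exon 7 is 72 nt (chr1:138116954-138117025). Each length is a multiple of 3, so that skipping an exon keeps the reading frame. Ptprc-203, Ptprc-204 and Ptprc-207 run to the last exon, with 4702, 4611 and 5074 nt. Of the other 9 transcripts, Ptprc-212 is a coding model truncated at 415 nt with exon 4 and part of exon 6. The remaining 8 transcripts (Ptprc-201, Ptprc-202, Ptprc-205, Ptprc-206, Ptprc-208, Ptprc-209, Ptprc-210 and Ptprc-211) are annotated as retained introns.

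These models limit what follows. No full-length model carries exon 5 alone, so reads of a complete CD45RB transcript were divided between Ptprc-213 and the models that cover the rest of the gene. A share of the 4 transcripts is therefore relative to this annotation and is not a share of molecules. Transcript values are estimates from pseudo-alignment, and the error of that assignment is not contained in the spread between mice.

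Libraries held 8085463 to 39127833 estimated counts, with the lowest total in stimulated WT mouse 5, and 37232 to 143439 of them fell on Ptprc. Ptprc ranked between 74 and 167 among genes by TPM, the level per length scaled to a fixed library sum. Ctsl itself was at 5.407 to 9.03 TPM in unstimulated WT and 10.74 to 16.48 TPM in unstimulated CtslΔTEC mice, which does not check the labels, since the deletion is in other cells. The 11 CD4 lineage markers were all above 1 TPM in every library. Of 8 B cell markers, 6 stayed under 1 TPM in every library. DP thymocyte markers (9 genes, among them Cd8a, Cd8b1 and Dntt), which mark the CD4+CD8+ stage before CD4SP cells, summed to 186 to 224 TPM in unstimulated WT and 390 to 476 TPM in unstimulated CtslΔTEC mice, without overlap. After stimulation they summed to 36.9 to 42.3 and 70.2 to 73.2 TPM. Y-linked genes were detected in 1 of 4 unstimulated WT (mouse 3) and 5 of 5 unstimulated CtslΔTEC mice, and in 1 mouse of each stimulated group. Files carried 3 dates. The first and second dates hold unstimulated libraries of both genotypes, and the third holds all 4 stimulated libraries, so that date and stimulation cannot be told apart. The labels give no culture for the unstimulated libraries, so 4 h of culture and stimulation cannot be told apart either. A response to stimulation below includes both.

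The total level of Ptprc overlapped between the genotypes in unstimulated cells, rose on stimulation in both and was higher in CtslΔTEC than in WT cells after stimulation. In unstimulated WT mice Ptprc stood at 1002, 985.9, 933.2 and 867.4 TPM. Unstimulated CtslΔTEC mice had 880.9, 1044, 1034, 1078 and 961.1 TPM, and the groups overlapped. Stimulated WT cells had 1428 and 1816 TPM, and stimulated CtslΔTEC cells had 2283 and 2200 TPM. The stimulated groups lay above all unstimulated libraries, and the CtslΔTEC libraries lay above the WT libraries. In these bulk libraries, fewer cells with a transcript and less of it per cell cannot be told apart.

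**Figure D1:**
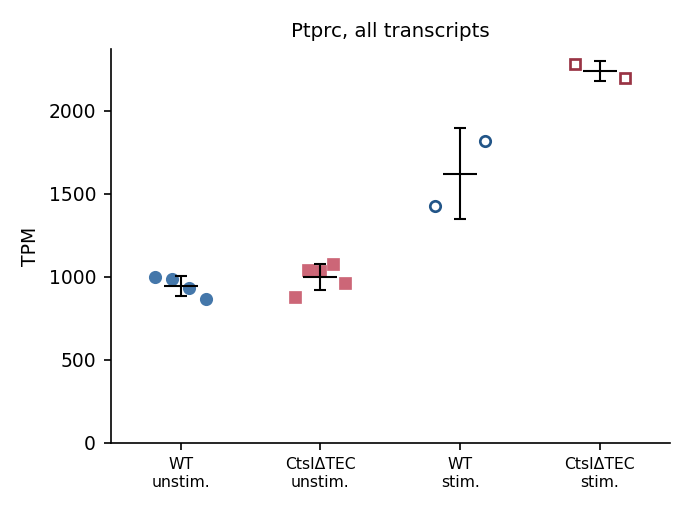
Level of Ptprc, all transcripts summed, in TPM (y axis) by group (x axis). Each point is 1 mouse, bars are mean ± SD. The unstimulated groups overlap between 867.4 and 1078 TPM, and the 4 stimulated libraries reach from 1428 to 2283 TPM.

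In group means the order of the levels was unstimulated WT (947.1 ± 60.7 TPM, SD, n = 4), unstimulated CtslΔTEC (999.6 ± 78.8, n = 5), stimulated WT (1622 ± 275, n = 2) and stimulated CtslΔTEC (2241 ± 58.4, n = 2). The neighbours at the low end did not differ beyond their spread. On normalized gene counts, the log2 fold change of CtslΔTEC over WT in unstimulated cells was −0.02 (SE 0.07, 95% interval −0.17 to 0.14) with an adjusted p of 0.924 in edgeR's quasi-likelihood test, where 14.8% of all genes tested were called at an adjusted p under 0.1 (6.42% higher and 8.36% lower). Its sign turned under several alternatives, and it was called in none of those run.

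In stimulated cells Ptprc was 1.33-fold higher in CtslΔTEC than in WT (log2 0.41, SE 0.11, 95% interval of the fold 1.12 to 1.57, edgeR adjusted p = 0.0355), beside 13.3% of all genes called (2.78% higher and 10.6% lower). This call rested on few libraries. It was lost without WT mouse 5 (log2 0.32, edgeR adjusted p = 0.222), without CtslΔTEC mouse 6 (0.38, 0.173), without CtslΔTEC mouse 7 (0.43, 0.105) and with the 4 stimulated libraries fitted alone (0.46, 0.279).

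Stimulation raised Ptprc 1.95-fold in WT (log2 0.96, SE 0.10, edgeR adjusted p = 4.43e-07) and 2.63-fold in CtslΔTEC cells (log2 1.40, SE 0.09, edgeR adjusted p = 2.86e-09). It was a broad response, since 67.7% of all genes were called in WT (32.9% higher and 34.8% lower) and 71.2% in CtslΔTEC (32.9% higher and 38.2% lower). The difference between the responses was 0.43 on the log2 scale (SE 0.14) and missed the threshold in edgeR (adjusted p = 0.109), where 6.01% of genes passed (1.13% higher and 4.88% lower). It passed in DESeq2 (0.47, adjusted p = 0.00728) and with upper-quartile normalization in edgeR (0.46, adjusted p = 0.0905). Of 8 early activation genes, 8 rose in each genotype.

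Within this total, single transcripts of unstimulated cells differed between the genotypes. The transcript without exons 4 to 7 was lower and the transcript with all of them was higher in CtslΔTEC cells, whereas the most abundant form, Ptprc-203, overlapped between the groups. At the level of transcripts, 2 of 12 tested Ptprc transcripts were called in unstimulated cells, 1 in each direction, beside 2.27% of all transcripts.

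Ptprc-203, the CD45RO form, had the highest TPM in every library, although reads of CD45RB transcripts outside Ptprc-213 can be counted in it. Its TPM in unstimulated WT mice was 491.4, 518.9, 469.1 and 544.9. In unstimulated CtslΔTEC mice it was 531.0, 570.7, 592.5, 592.1 and 515.1. The groups overlapped, and the log2 fold change was 0.07 (SE 0.08, edgeR adjusted p = 0.852). It made up 49.0% to 62.8% of the Ptprc TPM in unstimulated WT and 53.6% to 60.3% in unstimulated CtslΔTEC libraries. The highest share was that of WT mouse 4, in which the retained-intron transcripts together held the least among the unstimulated libraries (9.70%).

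Ptprc-204, which lacks exon 7 as well, stood at 182.4, 153.5, 146.6 and 145.5 TPM in unstimulated WT mice. The unstimulated CtslΔTEC mice had 97.36, 96.47, 119.5, 101.9 and 101.9 TPM, all below the lowest WT mouse. Its level was 0.62-fold that of WT (log2 −0.68, SE 0.08, edgeR adjusted p = 0.00328). The call held without any 1 of the 9 mice (log2 −0.74 to −0.63), with file date as a factor (−0.68, edgeR adjusted p = 0.00674) and with the second date alone (−0.73, 0.0259). It was lost when Y-linked expression entered the fit (−0.56, SE 0.13, edgeR adjusted p = 0.224). The 1 WT mouse with Y-linked expression had 146.6 TPM, and all 5 CtslΔTEC mice share that expression. The part of sex was not tested beyond this fit.

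Ptprc-207, the CD45RABC form, was a minor transcript. It reached 3.24, 5.375, 6.297 and 3.228 TPM in unstimulated WT mice. In unstimulated CtslΔTEC mice it reached 8.072, 13.12, 12.83, 11 and 9.5 TPM, all above the highest WT mouse. The estimated counts behind these values were 407 to 629 per WT and 1151 to 1717 per CtslΔTEC library. The level was 2.28-fold higher (log2 1.19, SE 0.25, edgeR adjusted p = 0.0487). The direction was the same without each mouse in turn, but the call was lost without WT mouse 1, WT mouse 4, CtslΔTEC mouse 2, CtslΔTEC mouse 3 or CtslΔTEC mouse 4 (edgeR adjusted p 0.105 to 0.131). It was also lost within the second date (1.12, edgeR adjusted p = 0.168) and with the Y-linked covariate (0.72, SE 0.39, edgeR adjusted p = 0.839). Among the WT mice, the highest value was that of mouse 3, the mouse with Y-linked expression.

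Ptprc-213, the truncated exon 5 model, had 86.01, 103.2, 78.07 and 48.12 TPM in unstimulated WT and 94.83, 135.2, 121.9, 127.6 and 131.1 TPM in unstimulated CtslΔTEC mice. The groups overlapped through WT mouse 2 and CtslΔTEC mouse 1. Its log2 fold change was 0.58 (SE 0.19, edgeR adjusted p = 0.235). With file date as a factor it was called (0.68, SE 0.12, edgeR adjusted p = 0.0298).

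**Figure D2:**
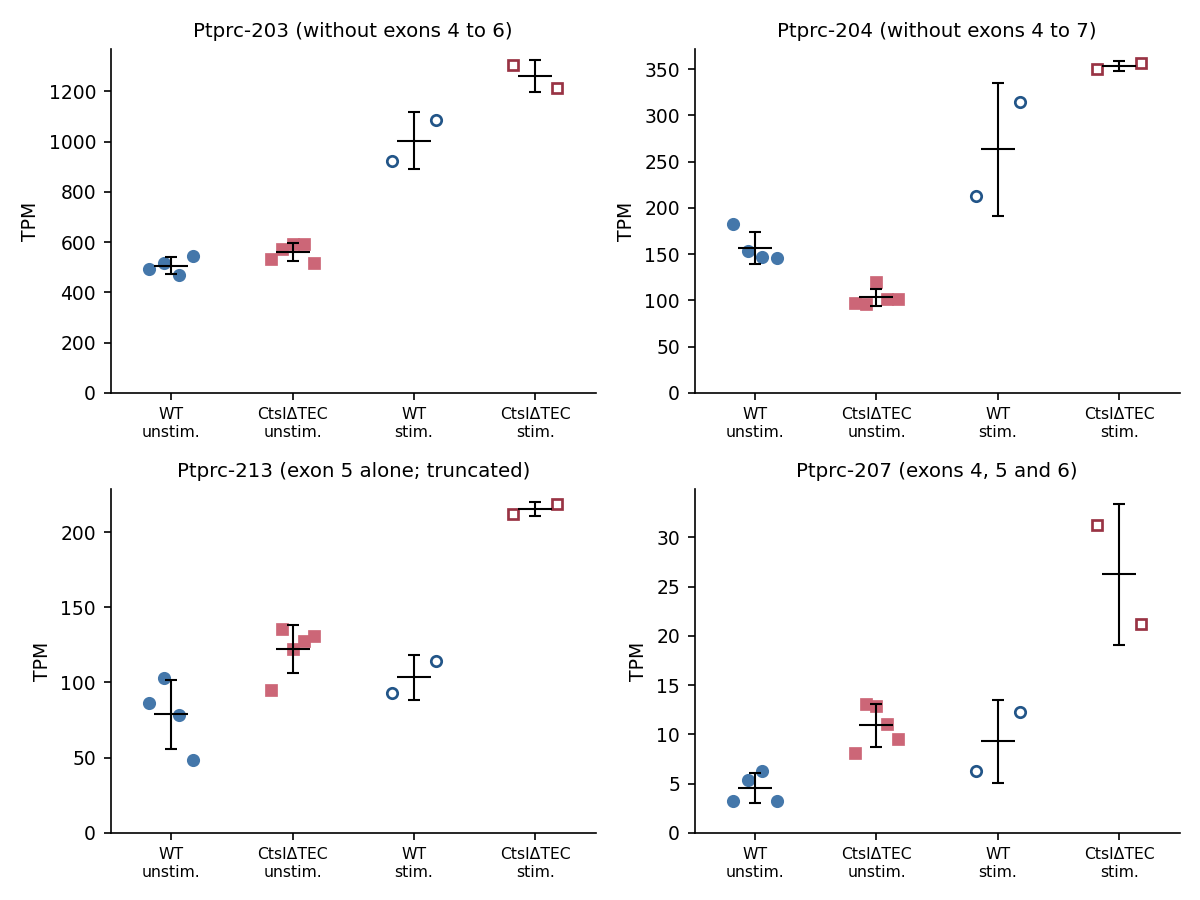
Level of 4 coding Ptprc transcripts in TPM (y axes, each from 0) by group (x axes). Each point is 1 mouse, bars are mean ± SD. Ptprc-204 does not overlap between unstimulated WT (145.5 to 182.4) and CtslΔTEC (96.47 to 119.5), and neither does Ptprc-207 (3.228 to 6.297 and 8.072 to 13.12).

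The test of transcript usage asks whether a transcript changes relative to the other transcripts of its gene. In unstimulated cells Ptprc as a gene was called in it (edgeR diffSpliceDGE, adjusted p = 0.00226), as were 0.714% of genes with more than 1 transcript. This gene call was lost in limma on the log2 share (adjusted p = 0.275) and with the Y-linked covariate (edgeR adjusted p = 1.0). Ptprc-207 was the 1 transcript called, with a usage log2 fold change of 1.24 (edgeR adjusted p = 0.00102), against 0.184% of all transcripts. It stayed called without each of the 9 mice (1.09 to 1.45, edgeR adjusted p at most 0.0297). It was lost in limma on the log2 share (1.21, adjusted p = 0.334) and with the Y-linked covariate (0.67, edgeR adjusted p = 1.0). Ptprc-204 had −0.63 (edgeR adjusted p = 0.165). It was called with file date as a factor (−0.64, edgeR adjusted p = 0.0231), within the second date (−0.72, 0.0157) and without WT mouse 4 (adjusted p = 0.0834). Counting transcripts whose share of Ptprc TPM did not overlap between the unstimulated groups gave 5 of 12 with a mean of at least 10 counts (Ptprc-204, Ptprc-205, Ptprc-207, Ptprc-211 and Ptprc-213), against 2.66% of all such transcripts. By TPM itself it was 4 of 12, against 6.19%.

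Read by exon, the 4 transcripts that span the variable region held more of exons 4 to 7 in unstimulated CtslΔTEC cells. Shares are percentages of the summed TPM of Ptprc-203, Ptprc-204, Ptprc-207 and Ptprc-213, and were compared over mice by exact permutation (two-sided), with p-values adjusted over 16 shares. Exons 4 and 6 occur in Ptprc-207 alone among them, so they have 1 value. The share with exons 4 and 6 was 0.425%, 0.688%, 0.900% and 0.435% in unstimulated WT mice. It was 1.10%, 1.61%, 1.51%, 1.32% and 1.25% in unstimulated CtslΔTEC mice. The groups did not overlap, and the difference of 0.749 percentage points had an exact permutation p of 0.00794, the smallest this design allows (adjusted p = 0.0254). That direction depends on which models are counted. When the truncated exon 4 models Ptprc-206 and Ptprc-212 were added, the difference was −0.065 points (permutation test, adjusted p = 0.976).

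The share with exon 5 was 11.7%, 13.9%, 12.1% and 6.92% in unstimulated WT mice. In unstimulated CtslΔTEC mice it was 14.1%, 18.2%, 15.9%, 16.6% and 18.6%. The groups did not overlap, although WT mouse 2 and CtslΔTEC mouse 1 were close to each other. WT mouse 4 was the lowest. The difference was 5.53 points (exact permutation p = 0.0159, adjusted p = 0.0363) and ranged from 4.13 to 6.45 points without each mouse in turn. Its size depends on how the short model Ptprc-213 is weighted, with 1.58 points on estimated counts (permutation test, adjusted p = 0.0212). The transcripts to the last exon leave out Ptprc-213, so that Ptprc-207 alone holds exon 5 there. Their 0.921 points (permutation test, adjusted p = 0.0212) are the share of Ptprc-207 and do not check exon 5 by itself. The complement is the share without exons 4 to 6, the CD45RO arrangement, at 88.9% ± 2.97 in WT and 83.3% ± 1.82 in CtslΔTEC mice (SD, n = 4 and 5). It can include reads of CD45RB transcripts outside Ptprc-213 and is not a share of CD45RO molecules.

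The share without exons 4 to 7 was 23.9%, 19.7%, 20.9% and 19.6% in unstimulated WT mice. It was 13.3%, 11.8%, 14.1%, 12.2% and 13.5% in unstimulated CtslΔTEC mice, with a gap of several points between the groups. The difference was −8.04 points (exact permutation p = 0.00794, adjusted p = 0.0254). Within Ptprc-203 and Ptprc-204 alone, which differ in exon 7, Ptprc-204 took 21.1% to 27.1% in WT and 14.5% to 16.8% in CtslΔTEC mice. The WT mouse with Y-linked expression had 0.900% with exons 4 and 6, the highest of the WT mice. It had 12.1% with exon 5 and 20.9% without exons 4 to 7. With 1 such WT mouse, the part of sex in these shares was not tested.

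**Figure D3:**
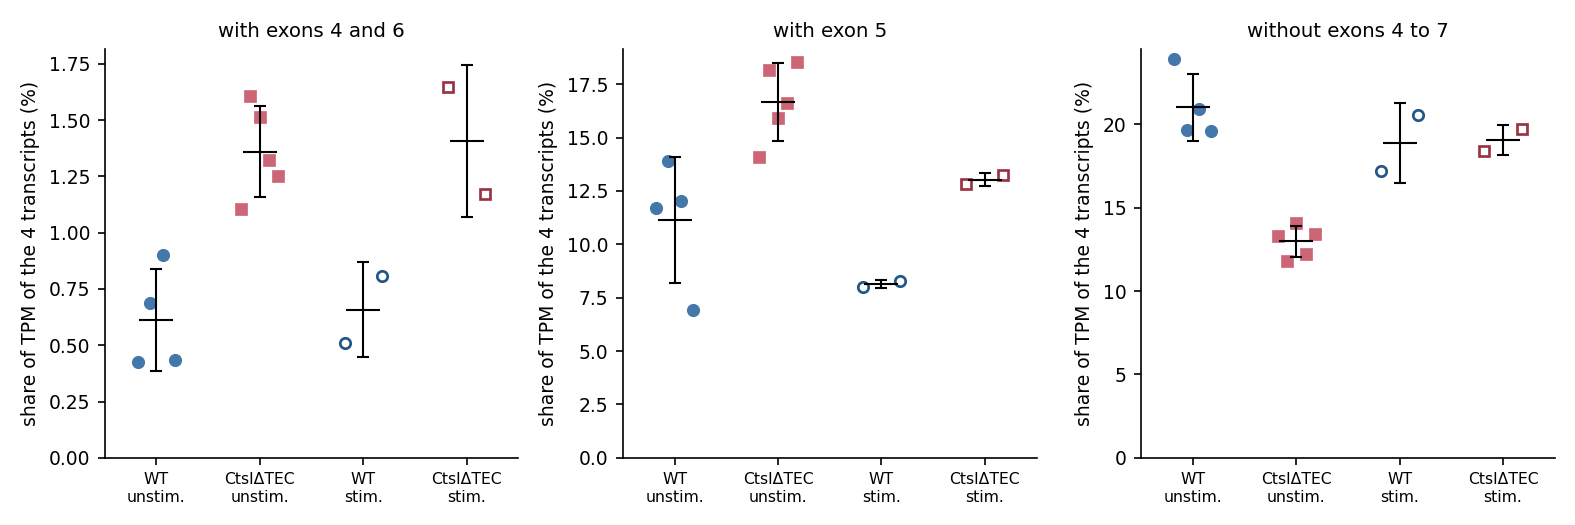
Share of the TPM of Ptprc-203, Ptprc-204, Ptprc-207 and Ptprc-213 (y axes, %) that holds exons 4 and 6, holds exon 5, or lacks exons 4 to 7, by group (x axes). Each point is 1 mouse, bars are mean ± SD. The unstimulated groups separate in each panel, and the stimulated groups overlap in the right one (17.2 to 20.6% and 18.4 to 19.7%).

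The labels give polyA RNA and the methods rRNA depletion, a point on which the level of retained-intron transcripts can depend and which is not settled here. Among these transcripts, the sum did not separate the genotypes in unstimulated cells, at 13.5% ± 2.69 of the Ptprc TPM in WT (SD, n = 4) and 13.4% ± 1.43 in CtslΔTEC mice (n = 5), while single members did by share. Ptprc-205, a short transcript of the first exons, had 10.57 to 13.45 TPM in WT and 5.977 to 9.469 TPM in CtslΔTEC mice, and its share was lower by 0.48 points (exact permutation p = 0.0159, adjusted p = 0.0363). Behind these TPM stood 25 to 42 estimated counts in WT and 12 to 42 in CtslΔTEC mice, which overlapped, on a model of 364 nt whose TPM depend strongly on the effective length. Ptprc-211 had 0.536 to 0.897 TPM in WT and 1.06 to 2.76 TPM in CtslΔTEC mice, and its share was 0.074 points higher (exact permutation p = 0.0397, adjusted p = 0.0705). The levels of both missed the threshold (edgeR adjusted p = 0.408 and 0.244).

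Other values moved with genotype in the same libraries. Of 8 DP thymocyte markers tested, 6 were higher and 0 lower in edgeR (75% called against 14.8% of all genes), with 0 lower in DESeq2 or at an unadjusted p under 0.05. The rises were led by Cd8a (log2 2.75, SE 0.12, edgeR adjusted p = 2.76e-07) and Cd8b1 (2.22, SE 0.10, edgeR adjusted p = 2.76e-07), the subunits of the CD8 co-receptor. The 6 CD8 lineage markers, which also hold Cd8a and Cd8b1, went both ways, with 2 higher and 2 lower (66.7% called). They summed to 71.2 to 89.7 TPM in unstimulated WT and 179 to 223 TPM in unstimulated CtslΔTEC mice. Of the 11 CD4 lineage markers, 7 were lower and 0 higher in unstimulated CtslΔTEC cells in edgeR (63.6% called), with 1 higher at an unadjusted p under 0.05 and 0 in DESeq2, and 5 were lower in stimulated ones (45.5% called against 13.3%). Their sums were 4890 to 5430 TPM in unstimulated WT and 4420 to 4730 TPM in unstimulated CtslΔTEC mice, without overlap. B cell markers, which would come with CD45RABC, summed to 1.89 to 3.42 TPM in WT and 2.19 to 3.58 TPM in CtslΔTEC mice, and 0 of the 5 tested were called in edgeR or DESeq2, with 1 lower at an unadjusted p under 0.05. The 6 thymic epithelial markers summed to 1.62 to 2.44 TPM in unstimulated WT and 2.49 to 4.06 TPM in unstimulated CtslΔTEC mice, without overlap. Of the 3 tested, Epcam, named after its values were seen, was higher (log2 0.77, SE 0.22, edgeR adjusted p = 0.0469), while the epithelial factor Foxn1 and the keratins Krt5 and Krt8 stayed under 1 TPM in every library. The mean fragment length implied by the effective lengths, which weighs most on the short models Ptprc-205, Ptprc-212 and Ptprc-213, was 256.7 to 304.6 nt in WT and 240.5 to 325.6 nt in CtslΔTEC libraries, with overlap. The part of the DP, CD8 lineage, CD4 lineage and thymic epithelial markers in the isoform differences was not tested. Nor was that of sex and of fragment length, beyond the fits given here.

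In stimulated cells the shares with exons 4 to 6 did not overlap between the genotypes, while the share that also lacks exon 7 did. The share with exons 4 and 6 was 0.508% and 0.806% in WT and 1.65% and 1.17% in CtslΔTEC cells. The share with exon 5 was 8.01% and 8.29% in WT and 12.8% and 13.2% in CtslΔTEC cells. The difference in the share with exon 5 was 4.88 points, and 1.45 points on estimated counts. On the transcripts to the last exon, where Ptprc-207 alone holds exon 5, it was 0.882 points. Neither share overlapped between the genotypes, but 2 against 2 libraries cannot go below an exact permutation p of 0.333. Y-linked genes were detected in WT mouse 6 and CtslΔTEC mouse 7 and not in WT mouse 5 and CtslΔTEC mouse 6. Without overlap every pairing gives the same order, so that pairing by sex adds no test. The share without exons 4 to 7 was 17.2% and 20.6% in WT and 18.4% and 19.7% in CtslΔTEC cells, which overlapped.

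By level, 3 of 13 Ptprc transcripts were called higher in stimulated CtslΔTEC than in stimulated WT cells, and 0 lower, against 4.4% of all transcripts in edgeR. At an unadjusted p under 0.05 there were 7 higher and 0 lower. Ptprc-207 had 6.278 and 12.29 TPM in WT and 31.29 and 21.18 TPM in CtslΔTEC cells (log2 1.40, SE 0.39, edgeR adjusted p = 0.0886). Ptprc-213 had 92.63 and 114.1 TPM in WT and a mean of 215.3 ± 4.70 TPM (SD, n = 2) in CtslΔTEC cells (1.00, SE 0.26, edgeR adjusted p = 0.0754). Ptprc-210, a retained-intron transcript that runs through exons 5 and 6 and the intron between them, had 42.19 and 76.61 TPM in WT and 111.7 and 126.1 TPM in CtslΔTEC cells (0.91, SE 0.24, edgeR adjusted p = 0.0692). Each of these calls was lost without WT mouse 5, the shallowest library (edgeR adjusted p = 0.458 for Ptprc-207, 0.347 for Ptprc-213 and 0.405 for Ptprc-210), and without CtslΔTEC mouse 6 (0.361, 0.186 and 0.148). Over the 13 fits without 1 mouse, the call was lost in 6 for Ptprc-207, in 9 for Ptprc-213 and in 4 for Ptprc-210. In the usage test 0 Ptprc transcripts were called in stimulated cells in edgeR or limma, with 4 at an unadjusted p under 0.05 in edgeR, and 1.03% of all transcripts were called. Ptprc-207 came nearest (1.10, edgeR adjusted p = 0.126). Ptprc as a gene had an edgeR adjusted p of 0.259, where 4.1% of genes were called.

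Ptprc-204 was the transcript whose genotype difference changed with stimulation. It had 212.5 and 314.0 TPM in stimulated WT and 349.7 and 356.7 TPM in stimulated CtslΔTEC cells, so that the order of the genotypes was the opposite of that in unstimulated cells. The stimulated difference itself was not called (0.32, SE 0.14, edgeR adjusted p = 0.313). Stimulation raised Ptprc-204 by 0.64 on the log2 scale in WT (SE 0.12, edgeR adjusted p = 0.00111) and by 1.65 in CtslΔTEC cells (SE 0.11, edgeR adjusted p = 2.03e-07). The difference of these responses was 1.01 (SE 0.17, edgeR adjusted p = 0.024), against 1.18% of all transcripts called. It held without each of the 13 mice (0.82 to 1.22, edgeR adjusted p at most 0.0736). The other 12 transcripts were not called in this test. By usage, Ptprc-204 had 0.65 (edgeR adjusted p = 0.932), and 0 Ptprc transcripts were called in edgeR, with 1 at an unadjusted p under 0.05, beside 0.862% of all transcripts and 3.2% of genes. In shares, the part without exons 4 to 7 went from 12.99% ± 0.934 (SD, n = 5) to 19.1% ± 0.905 (n = 2) in CtslΔTEC cells and from 21.03% ± 2.01 (n = 4) to 18.9% ± 2.39 (n = 2) in WT cells. The rise of 6.07 points in CtslΔTEC cells had the smallest exact permutation p that 5 against 2 allows (0.0476, adjusted p = 0.152), and the fall of 2.13 points in WT had an exact permutation p of 0.467.

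**Figure D4:**
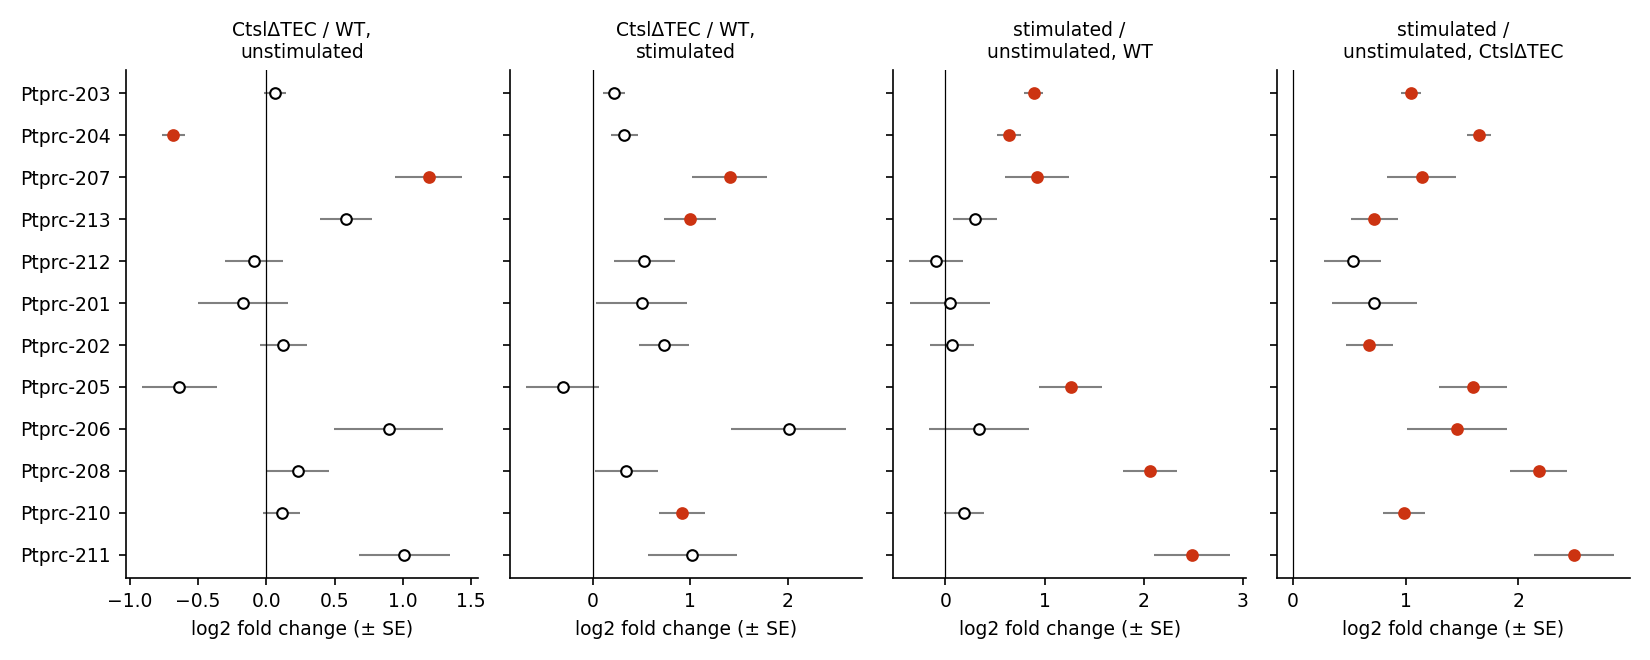
Log2 fold change ± SE (x axes, each with its own range) of 12 Ptprc transcripts (y axis) in edgeR, for genotype in unstimulated and stimulated cells and for the response to stimulation in each genotype. Filled red points have an adjusted p under 0.1. Ptprc-204 is at −0.68 in the leftmost panel and at 0.64 and 1.65 in the response panels.

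Stimulation raised 6 of the 13 Ptprc transcripts in WT and 10 in CtslΔTEC cells, and 0 were called lower. In edgeR 40.8% of all transcripts were called in WT and 46.6% in CtslΔTEC cells, and 0 Ptprc transcripts were lower at an unadjusted p under 0.05 in either. Ptprc-212 was the 1 transcript with a value below 0, at −0.09 in WT (edgeR adjusted p = 0.83). Ptprc-203 rose 1.85-fold in WT (log2 0.89, SE 0.10, edgeR adjusted p = 1.73e-05), to 923.8 and 1085 TPM, and 2.07-fold in CtslΔTEC cells (1.05, SE 0.09, edgeR adjusted p = 2.04e-06), to 1306 and 1215 TPM. The steepest rises were those of retained-intron transcripts at low levels. Ptprc-211, which runs through exons 9 and 10 with the intron between them, went from 0.536 to 0.897 TPM in unstimulated WT to 2.98 and 5.55 TPM (log2 2.48, SE 0.38, edgeR adjusted p = 3.15e-04), and from 1.06 to 2.76 TPM in unstimulated CtslΔTEC cells to 9.14 and 9.35 TPM (2.50, SE 0.35, edgeR adjusted p = 1.20e-04). Ptprc-208, which holds exon 2 with the introns around it, rose by 2.06 in WT and 2.18 in CtslΔTEC cells on the log2 scale (SE 0.27 and 0.25). Ptprc-209 was at 0 to 0.572 TPM in every library. Retained-intron transcripts of all genes took 5.13% to 6.59% of a library's counts in unstimulated cells, 5.99% and 7.63% in stimulated WT and 7.94% and 8.55% in stimulated CtslΔTEC cells. The part of this shift across the library in the rises, and in the higher Ptprc-210 of stimulated CtslΔTEC cells, was not tested.

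Ptprc-211 was also the 1 transcript whose usage was called in each response, with 1.73 in WT (edgeR adjusted p = 0.0117) against 4.48% of all transcripts and 1.38 in CtslΔTEC cells (edgeR adjusted p = 0.0355) against 6.31%. The WT call was lost without stimulated WT mouse 6 (edgeR adjusted p = 0.27). The CtslΔTEC call was lost without unstimulated mouse 4 or 5 (0.106 and 0.109) and without stimulated mouse 6 or 7 (0.224 and 0.27). In limma 3 transcripts were called in each response, Ptprc-211 among them (adjusted p = 0.0195 and 0.0197). Ptprc as a gene passed the usage test in WT (edgeR adjusted p = 0.0289, with 15.1% of genes called) and in CtslΔTEC cells (0.0889, with 20.4%), and its adjusted p rose to 0.311 and 0.595 at most in fits without 1 mouse. Across the genotypes, the share with exon 5 fell by 3.32 points on stimulation (permutation test stratified by genotype, p = 0.0349, adjusted p = 0.0798). Without single mice the fall kept its size (−4.027 to −2.864 points), and its call was lost in 10 of 13 fits. Its size depends on the short model Ptprc-213. The transcripts to the last exon leave that model out and gave a rise of 0.003 points, which is the share of Ptprc-207 alone. The share with exons 4 and 6 changed by 0.047 points (permutation test, adjusted p = 0.714), and by −3.187 points when Ptprc-206 and Ptprc-212 were added (permutation test, adjusted p = 0.0726), so that its direction depends on the models counted.

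Regulators of the variable exons were described from a list of 25 RNA-binding proteins and their regulators, all of them tested. In unstimulated cells 4 were higher and 0 lower in CtslΔTEC mice in edgeR, with 2 lower at an unadjusted p under 0.05 and 1 lower in DESeq2 (16% against 14.8% of all genes), and in stimulated cells 4 were higher and 1 lower (20% against 13.3%). The median log2 fold change of the list was 0.00 in unstimulated and 0.17 in stimulated cells, where all genes had 0.01 and −0.06. Stimulation raised 12 and lowered 7 of the 25 in WT (76% against 67.7% of all genes) and raised 17 and lowered 6 in CtslΔTEC cells (92% against 71.2%).

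Hnrnpll, the activation-linked repressor of the variable exons, was at 61.58, 57.63, 59.6 and 59.34 CPM (counts relative to the library size scaled by edgeR) in unstimulated WT mice. It was at 56.42, 62.87, 61.5, 64.78 and 61.05 CPM in unstimulated CtslΔTEC mice, so the groups overlapped (log2 0.04, SE 0.06, edgeR adjusted p = 0.703). After stimulation it was at 54.27 and 78.56 CPM in WT and at 115.2 and 100.6 CPM in CtslΔTEC cells (0.69, SE 0.14, edgeR adjusted p = 0.00607). It rose on stimulation in CtslΔTEC cells (0.81, SE 0.11, edgeR adjusted p = 9.37e-06), while in WT the change was 0.17 (SE 0.12, edgeR adjusted p = 0.226). The difference of these responses was called (0.65, SE 0.16, edgeR adjusted p = 0.0457), but not without WT mouse 5 (0.41, edgeR adjusted p = 0.183) or CtslΔTEC mouse 6 (0.54, 0.221).

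Tra2a, an SR-like splicing activator, was the other regulator whose response differed (0.57, SE 0.16, edgeR adjusted p = 0.0669), with 147.2 and 176.6 CPM in stimulated WT and 208.1 and 231.4 CPM in stimulated CtslΔTEC cells, a call lost in 5 of 13 fits without 1 mouse. Hnrnph1, which binds G-rich splice elements, was higher in CtslΔTEC cells before stimulation (0.31, SE 0.07, edgeR adjusted p = 0.018) and after it (0.75, SE 0.12, edgeR adjusted p = 0.00131). Ptbp2, a polypyrimidine-tract-binding repressor, was higher in both states too (0.25 and 0.54, edgeR adjusted p = 0.0918 and 0.0145). Celf2, a T cell splicing regulator, was higher in unstimulated CtslΔTEC cells, at 302.0 to 363.9 CPM against 192.2 to 259.9 CPM (0.52, SE 0.09, edgeR adjusted p = 0.00325). It fell on stimulation by 1.73 in WT and 2.24 in CtslΔTEC cells on the log2 scale. Khdrbs1 (SAM68), which links signals to splicing, was the remaining regulator higher in unstimulated cells (0.20, SE 0.06, edgeR adjusted p = 0.0511) and is named after its values were seen. The call of Ptbp2 was lost in 7 of 9 fits without 1 mouse in unstimulated cells, and in 2 of 13 such fits and 1 of 6 other settings in stimulated cells. The unstimulated calls of Celf2 and Hnrnph1 were lost in the fit with a covariate for Y-linked expression (edgeR adjusted p = 0.156 and 0.204), and that of Hnrnph1 also with an offset for effective length (0.156).

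**Figure D5:**
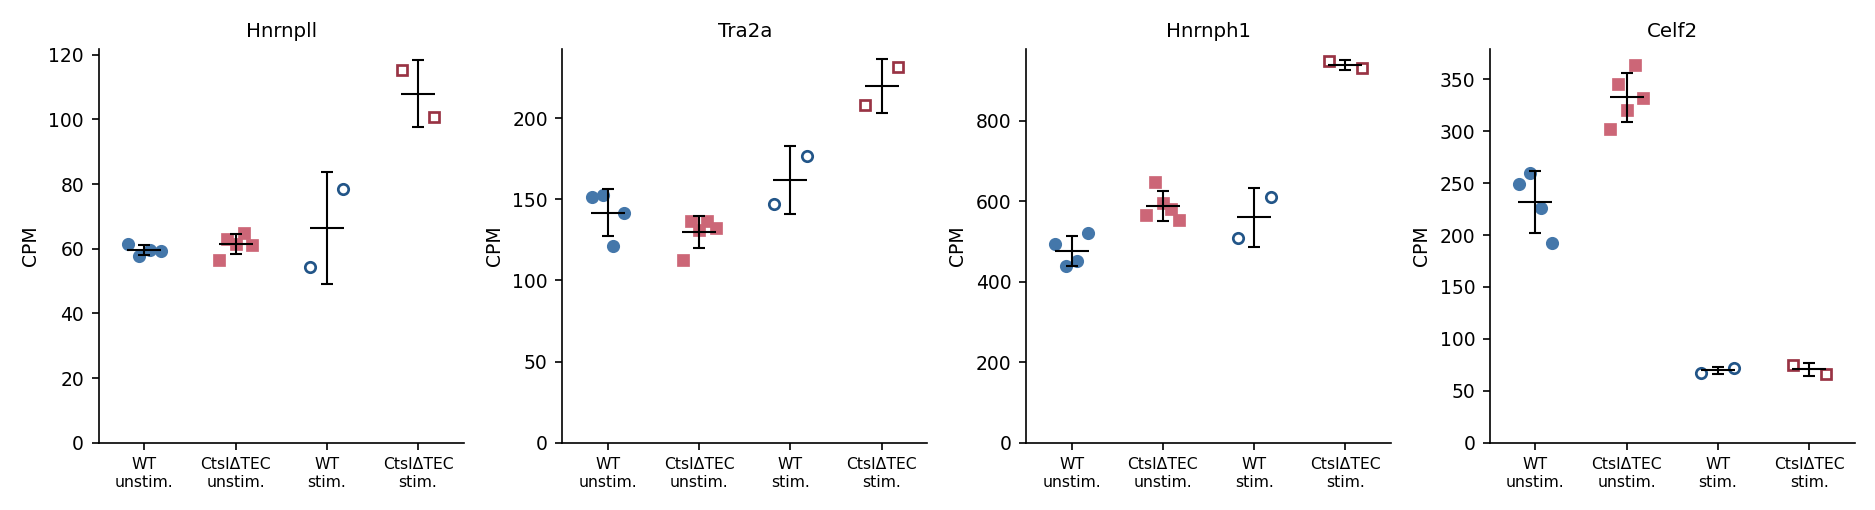
CPM (y axes, each from 0) of 4 RNA-binding proteins by group (x axes). Each point is 1 mouse, bars are mean ± SD. Hnrnpll lies between 56.42 and 64.78 CPM in all 9 unstimulated libraries and reaches 100.6 and 115.2 CPM in stimulated CtslΔTEC cells.

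Hnrnpl, the close relative of Hnrnpll that silences exon 4, did not pass the genotype test in unstimulated (−0.05, edgeR adjusted p = 0.71) or stimulated cells (0.17, 0.331). Nor did Ptbp1 (−0.08 and −0.06, edgeR adjusted p = 0.486 and 0.76), which rose on stimulation by 0.50 in WT and 0.52 in CtslΔTEC cells. Sfpq, a silencer freed after GSK3 inhibition in activated T cells, also did not pass (−0.14 and −0.04, edgeR adjusted p = 0.163 and 0.822). Gsk3b, which encodes that kinase, fell on stimulation by 1.26 in WT and 1.57 in CtslΔTEC cells and was lower in stimulated CtslΔTEC cells (−0.32, edgeR adjusted p = 0.0662), a call lost in 5 of 13 fits without 1 mouse and in 4 of 6 other settings. The largest rises of the list were those of Srsf2 (1.42 and 1.39 in WT and CtslΔTEC), Hnrnpa1 (0.97 and 1.01) and Srsf7 (0.80 and 0.97).

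Of 17 substrates of CD45 and partners of the Src-kinase switch, 1 was higher and 3 were lower in unstimulated CtslΔTEC cells, and 1 was higher and 4 were lower in stimulated ones (23.5% called against 14.8% of all genes, and 29.4% against 13.3%). Csk, the kinase that writes the inhibitory phosphate, was at 544.8 to 689.8 CPM in unstimulated WT and 453.4 to 583.8 CPM in unstimulated CtslΔTEC mice (−0.30, SE 0.10, edgeR adjusted p = 0.0748), and at 368.8 and 415.9 against 266.3 and 301.3 CPM after stimulation (−0.47, SE 0.14, edgeR adjusted p = 0.0581). The call was lost in 6 of 9 fits without 1 mouse in unstimulated and in 4 of 13 in stimulated cells. Ptpn22, a phosphatase that acts with CSK on the activating site of LCK, was higher in both states (0.39 and 0.38, SE 0.08 and 0.13, edgeR adjusted p = 0.00754 and 0.0741) and rose by 1.71 on stimulation in each genotype. Its call in stimulated cells was lost in 2 of 13 fits without 1 mouse and in 3 of 6 other settings, and that in unstimulated cells with the Y-linked covariate (edgeR adjusted p = 0.299). Fyn, a CD45 substrate, was lower in unstimulated CtslΔTEC cells (−0.23, SE 0.07, edgeR adjusted p = 0.0471), a call lost in 4 of 9 fits without 1 mouse and in 5 of 11 other settings. Lck, the main substrate, did not pass (−0.02, SE 0.09, edgeR adjusted p = 0.932, and 0.28, 0.245, after stimulation). Skap1, an adaptor that binds FYN, was lower in both states (−0.20 and −0.32), with the call lost in 5 of 9 and 5 of 13 fits without 1 mouse. Lime1, an adaptor that binds CSK (−0.54), and Cd247, the zeta chain of the receptor complex (−0.37), were lower in stimulated cells. The call of Cd247 was lost in 2 of 13 fits without 1 mouse and in the 4 stimulated libraries alone (edgeR adjusted p = 0.179).

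Of 15 other phosphatases tested, 1 was higher and 5 were lower in unstimulated CtslΔTEC cells (40% called against 14.8% of all genes) and 0 higher and 1 lower in stimulated ones (6.67% against 13.3%) in edgeR. For the stimulated cells 0 were higher at an unadjusted p under 0.05 or in DESeq2. Ptprj (CD148), the receptor-type phosphatase that can act on the same LCK site as CD45, was scarce, at 1.97 to 2.55 CPM in WT and 1.36 to 1.72 CPM in CtslΔTEC mice (−0.55, SE 0.16, edgeR adjusted p = 0.0527), and its call was lost in 3 of 9 fits without 1 mouse. Ptprk, another receptor-type phosphatase, was higher (0.73, SE 0.16, edgeR adjusted p = 0.0116). Ptpn7, which acts on MAP kinases, was lower (−0.29, SE 0.07, edgeR adjusted p = 0.0147). Both calls were lost with the Y-linked covariate (edgeR adjusted p = 0.271 and 0.105). Ptprs was lower in both states (−0.41 and −0.75), and its call was lost in 7 of 9 fits without 1 mouse in unstimulated and in 2 of 13 in stimulated cells. Ptpra and Ptpn12, named after their values were seen, complete the 5 that were lower in unstimulated cells. Ptpn2, which opposes JAK signals, was the 1 phosphatase whose response differed (0.47, SE 0.14, edgeR adjusted p = 0.0886), a call lost in 9 of 13 fits without 1 mouse.

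Of 10 tested genes for partners and ligands of CD45, 3 were higher and 3 lower in unstimulated CtslΔTEC cells (60% called against 14.8% of all genes), and 2 were higher and 1 lower in stimulated ones (30% against 13.3%). Of the 3 higher genes in unstimulated cells, Cd8a and Cd8b1 also belong to the DP thymocyte markers. Ptprcap, whose product binds CD45 in lymphocytes, was at 310.5 to 406.8 CPM in WT and 291.8 to 358.6 CPM in CtslΔTEC mice and did not pass in either state (−0.15 and −0.20, edgeR adjusted p = 0.369 and 0.487). Lgals1, a galectin that binds the sugars of CD45, was at 34.41 to 49.87 CPM in WT and 12.17 to 18.0 CPM in unstimulated CtslΔTEC mice (−1.58, SE 0.13, edgeR adjusted p = 2.59e-05) and stayed lower after stimulation (−0.79, SE 0.20, edgeR adjusted p = 0.0207), a call lost in 2 of 13 fits without 1 mouse. Cd2, an adhesion receptor, was lower (−0.38, SE 0.07, edgeR adjusted p = 0.00503) and Thy1 was higher (0.23, SE 0.08, edgeR adjusted p = 0.0916), the latter lost in 7 of 9 fits without 1 mouse. Plaur, the urokinase receptor, was lower in unstimulated CtslΔTEC cells (−1.11, SE 0.18, edgeR adjusted p = 0.00227) and rose further on stimulation there (4.94 against 3.36 in WT, a difference of 1.57, SE 0.25, edgeR adjusted p = 0.00487). With the Y-linked covariate the unstimulated calls of Cd2 and Plaur were lost (edgeR adjusted p = 0.18 and 0.153).

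Genes whose pattern was most like that of total Ptprc were found by Pearson's correlation of log2 CPM, as a description, since the points share depth and stimulation. Over the 13 libraries and 5688 genes they included Hspa4l (r = 0.995), Sept7 (0.995), Thoc1 (0.993) and Adamts6 (0.992), with every stimulated library above every unstimulated one. Adamts6, for example, was at 27.8 to 34.4 CPM in the unstimulated, 175 and 228 CPM in the stimulated WT and 306 and 312 CPM in the stimulated CtslΔTEC libraries. Over the 9 unstimulated libraries and 5717 genes they were Rbm7 (r = 0.981), Ppp1r2 (0.968), Psmc6 (0.967), Vps35 (0.961) and Plaa (0.96), each lowest in CtslΔTEC mouse 1, the library with the lowest Ptprc CPM.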

How the data were processed

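RNA of sorted M2 CD4SP thymocytes was sequenced in 13 libraries, 1 per mouse, grouped by the genotype and stimulation in their labels. Per the labels, the authors quantified reads with kallisto 0.48, which assigns reads to transcripts without alignment to the genome, and deposited a table per library of estimated counts and TPM for each transcript. Estimated counts are not whole numbers and were rounded here after summing by gene. TPM as deposited by the authors are scaled by effective length and library total. The study's methods name an Ensembl release for the index, which is of a later mouse assembly (GRCm39), and no build is named. Transcripts were paired with genes and exons through GENCODE M21, so coordinates are of GRCm38 (all 13 Ptprc transcripts have the same length in both), and no more than 0.461% of a library's counts had no gene.

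Genes and transcripts were tested with edgeR 4.0.16 (quasi-likelihood, TMM factors, R 4.3.3) at an adjusted p under 0.1 over all features. Unstimulated libraries were fitted by themselves, and the other contrasts in 1 fit of 13 libraries. Usage was tested with edgeR's diffSpliceDGE, and shares by exact permutation over mice. DESeq2 1.42.0 and limma 3.58.1 were alternatives, beside other scaling, filters, file date, Y-linked expression and leaving out each mouse. Scripts were tested on simulated data.

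Libraries held 8085463 to 39127833 counts, and counting intervals do not cover the error of transcript assignment. The members and gene lists were chosen with earlier results of these data known. Named genes were Ptprc and its transcripts, fixed regulators, substrates and partners of CD45 (Hnrnpll, Hnrnpl, Ptbp1, Sfpq, Lck, Fyn, Csk, Ptpn22, Ptprj and Ptprcap), up to 3 called members per list and direction with the largest change, the 5 genes most correlated with Ptprc in either set of libraries, and the markers. Some genes that this rule names are not reported here.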

Additional observations from a re-analysis of the deposited data

Results flagged for a closer look

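In 54 groups of values checked for a single library far from the rest, 5 were found, where chance gives about 1 in 20. The gap to the nearest library, as a part of the range of the group, was 0.764 for Ptprc-204 TPM in CtslΔTEC mouse 3 (119.5 TPM, the highest), 0.775 for Ptprc-211 TPM in CtslΔTEC mouse 2 (2.762 TPM, the highest) and 0.851 for Ptprc-208 TPM in WT mouse 3 (1.098 TPM, the highest). It was 1.0 for Ptprc-209 TPM in WT mouse 4, the 1 unstimulated WT library with any of it (0.111 TPM), and 0.857 for Ptbp1 CPM in CtslΔTEC mouse 1.

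The genotype difference changed with stimulation, by the interaction term in edgeR, for Ptprc-204 (1.009 on the log2 scale, adjusted p = 0.024), Hnrnpll (0.645, 0.0457), Tra2a (0.566, 0.0669), Ptpn2 (0.467, 0.0886), Lgals1 (0.797, 0.0792) and Plaur (1.574, 0.00487). Without single mice, the call was lost in 11 of 13 fits for Lgals1, 9 for Ptpn2, 5 for Tra2a and 2 for Hnrnpll.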

How the results depend on the processing

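The total of Ptprc in unstimulated cells, not called in any setting, had a log2 difference of −0.017 and turned sign with library totals (0.03), an effective-length offset (0.023), the second file date alone (0.022), Y-linked expression as a covariate (0.065), 8 libraries without the fifth CtslΔTEC mouse (0.002) and without single mice (−0.046 to 0.018). The stimulated difference was 0.463 in the 4 libraries alone and 0.317 to 0.496 without single mice. The interaction was called with upper-quartile factors (0.459) and in DESeq2 (0.467), and was 0.337 to 0.521 without single mice.

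Exon shares (exons 4 and 6, exon 5, without exons 4 to 7) in unstimulated cells kept their call without each mouse. On the second date alone they were 0.724, 5.249 and −8.994 points, where 3 against 3 cannot pass (permutation test, adjusted p = 0.178). Adding Ptprc-206 and Ptprc-212 gave −0.065 points for exon 4 in unstimulated cells, 1.434 in stimulated cells, −3.187 for the response and 1.5 for the interaction. For exon 5 in stimulated cells it gave 4.543, and estimated counts gave 1.454. The transcripts to the last exon, where Ptprc-207 alone holds exon 5, gave 0.882. The exon 5 response was −0.383 on estimated counts, 0.003 on the transcripts to the last exon and −4.027 to −2.864 without single mice, and the exon 4 response −0.073 to 0.166. The cause was not tested. Counting noncoding transcripts that span exons 3 to 8 added none.

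Mouse numbers of the unstimulated groups did not pair the samples (correlations of deviations −0.155, 0.347, −0.0974 and −0.138, with 2 of 8 libraries closest to their own number). With the replicate block the shares were 0.775, 5.063 and −8.155 points, where 4 pairs cannot pass (permutation test, adjusted p = 0.25), Ptprc-204 had −0.681 (edgeR adjusted p = 0.161) and 1056 genes were called, against 1549 in the same 8 libraries without it.

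Usage calls of Ptprc transcripts numbered 1 in unstimulated cells, 0 in limma and with the Y-linked covariate, 2 with file date as a factor and on the second date alone, and 1 to 2 without single mice. In stimulated cells there were 0, 1 with at least 50 counts in 2 libraries and 0 to 1 without single mice. In the WT response there were 1, 3 in limma, 2 with at least 50 counts and 0 to 3 without single mice, and in the CtslΔTEC response 1, 3 in limma and 0 to 1 without single mice. Of the 67 listed genes tested 5 had a called interaction in edgeR (6.01% of all genes) and 11 in DESeq2 (7.37%). With the Y-linked covariate 429 genes were called in unstimulated cells, against 1943. In stimulated cells 1900 were called, 966 without WT mouse 5, 944 without CtslΔTEC mouse 6, 1252 without CtslΔTEC mouse 7 and 1127 in the 4 libraries alone, and for the interaction 856, 340 without WT mouse 5 and 334 without CtslΔTEC mouse 6. Library totals moved the higher share of called genes in unstimulated cells from 43.4% to 56.8%, and the median of all genes in the CtslΔTEC response from −0.064 to −0.208.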
